A study of Rattus norvegicus with 26 samples.

Results

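The collagens are the triple-helical proteins of the extracellular matrix, and 43 collagen genes were followed here in the rat spinal cord before and after a compression injury. The members were the genes of the count table whose symbol consists of Col, a type number, the letter a and a chain number, provided that at least 10 reads were counted in at least 3 libraries. All 43 genes with such a symbol met the count rule, among 32883 genes in the table, and 34 of them had 10 or more counts in all 26 libraries. Col10a1, with the fewest, reached 10 counts in 12 libraries. All 43 had 10 or more counts in at least 3 Intact libraries, so none entered through the injured groups alone. Col6a3, a further chain of type VI collagen, was not analysed here.

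Collagen chains are hydroxylated and folded in the endoplasmic reticulum, assembled into trimers, secreted, trimmed by proteinases and cross-linked outside the cell. Fibril-forming collagens such as types I, III and V make the fibers of connective tissue and scar, type IV makes the sheet of the basement membrane around vessels and below the meninges, and type VI makes beaded microfibrils. The fibril-associated collagens (FACITs) sit on fibrils, the multiplexins lie in basement membrane zones, and the transmembrane collagens are anchored in the cell surface. In the healthy cord collagen is found mainly in meninges and around vessels, and a lesion can fill with a fibrotic scar beside the scar of the astrocytes.

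All samples came from wild type adult female Sprague-Dawley rats of 250 g, labelled as postnatal day 70 in every group, and each library was made from poly(A) RNA of 5 mm of spinal cord around the lesion. The groups were Intact (untreated by the labels, intact or sham rats by the study's methods, n = 4), sub-SCI (cord injured at T10 with a clip of 60 g for 1 min and taken at the time of transplantation, n = 3), and injured rats given mesenchymal stem cells of human umbilical cord (hUC-MSCs, +MSC) or phosphate-buffered saline (+PBS) intrathecally 7 days after the injury. The +PBS cords were taken in week 1 (n = 3), 2 (n = 2) or 4 (n = 4) after transplantation (wpt), and the +MSC cords in week 1 (n = 3), 2 (n = 3) or 4 (n = 4). By the study's methods the rats also received cyclosporin A daily, and whether Intact rats did was not stated. Reads that mapped to the human genome had been removed by the authors in order to keep those of the host. Whether any human reads remained was not tested here. Samples were labelled by a number within their group, the study's methods call them biological replicates, and p-values measure the spread between them. For week 2 the methods name +MSC and not +PBS as the smaller group. The study's results mention 3 +MSC-2w samples, as the labels do, and the labels were followed here.

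Totals ran from 19496602 to 43468509 counts per library. Levels are CPM, read counts divided by the TMM-scaled library size, and a differentially expressed gene (DEG) had a log2 fold change beyond 1 in either direction and an adjusted p under 0.01 in the edgeR quasi-likelihood test over 17990 genes. The libraries held cord tissue: the sum over 10 neuron markers was 10800 to 13000 CPM in Intact and 553 to 2530 CPM in sub-SCI, and that over 8 astrocyte markers was 11700 to 13400 and 6210 to 12200 CPM. In such bulk samples fewer cells of a type and less RNA per cell cannot be told apart. Some libraries stood apart. Intact replicate 4 had 405 CPM of 8 skeletal muscle markers, against 16.1 to 22.3 CPM in the other Intact libraries, and +PBS-4w replicate 2 had 275 CPM, against 18.9 to 30 CPM in the rest of its group. In +PBS-4w replicate 1 the 43 collagens summed to 2210 CPM, against 5440 to 6590 CPM in the other +PBS-4w libraries, and the neuron markers to 7360 CPM, against 1880 to 2640 CPM. Replicate 1 was the lowest of its group in 6 or more of the 8 groups for 8 of the 43 collagen genes, or 18.6%, against 9.6% of all genes tested.

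The summed level of the family was several times the Intact level after injury and lower again at later times. Per kb of gene length, the 43 genes summed to 374 ± 113 CPM per kb in Intact (SD, n = 4) and 2640 ± 997 in sub-SCI (n = 3). In the +PBS groups the sum was 1610 ± 727 at 1 wpt (n = 3), 698 ± 132 at 2 wpt (n = 2) and 1060 ± 405 at 4 wpt (n = 4), and in the +MSC groups 834 ± 157, 372 ± 48.2 and 578 ± 183. All sub-SCI libraries (2010 to 3790 CPM per kb) lay above all Intact libraries (218 to 460). The +MSC range lay below the +PBS range at 1 wpt (679 to 992 and 1170 to 2450) and at 2 wpt (338 to 427 and 605 to 791), and the ranges overlapped at 4 wpt (336 to 781 and 469 to 1330).

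Col1a1 and Col3a1, the main chains of scar fibrils, made up a large and changing part of the sum. Together they were 17.8% ± 12.2 of the CPM per kb in Intact (SD, n = 4) and 56.7% ± 2.36 in sub-SCI (n = 3). The share was 44.5% ± 3.15, 29.3% ± 4.21 and 32.9% ± 6.04 in the +PBS groups and 37% ± 2.89, 14.6% ± 5.39 and 25.6% ± 8.43 in the +MSC groups. FACITs had the opposite course, with 24.6% ± 7.74 in Intact, 6.94% ± 2.67 in sub-SCI and 28.6% ± 2.24 in +MSC-2w. Such shares are a description of composition, in which one class is lower where another is higher.

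**Figure D1:**
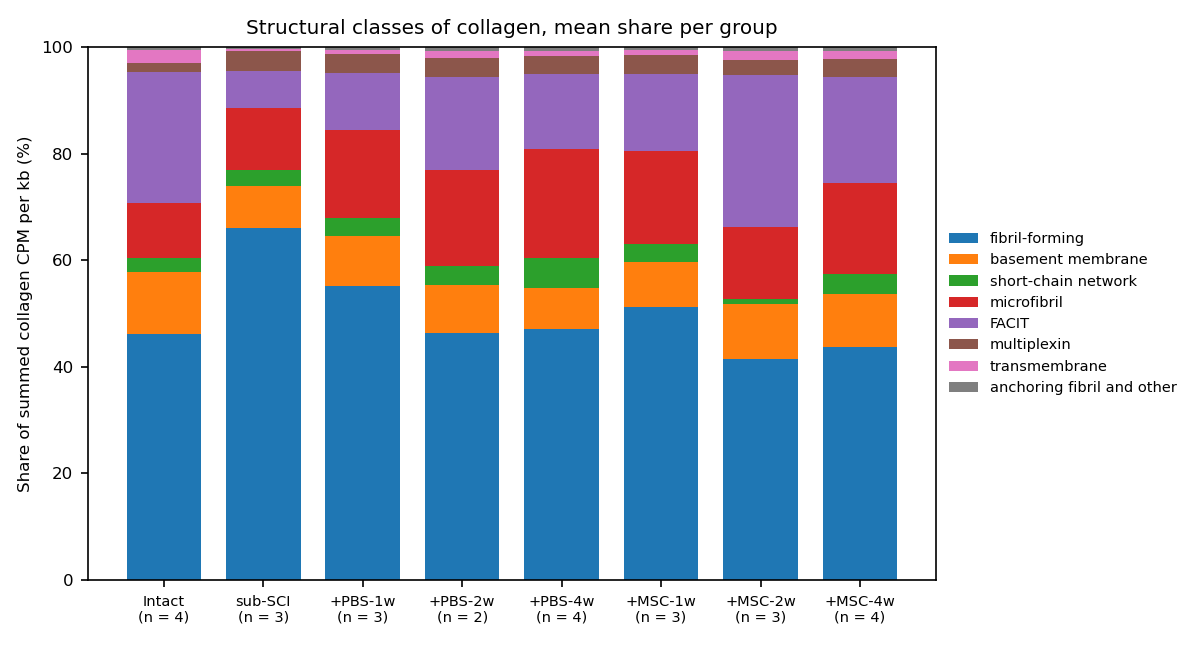
Stacked bars give the mean share of each structural class in the summed collagen CPM per kb (y axis, %) for the 8 groups (x axis). The fibril-forming share was 46.2% in Intact, 66.1% in sub-SCI and 41.4% in +MSC-2w, and the FACIT share was 24.6%, 6.94% and 28.6%.

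The first comparison sets the injured cord, before cells or PBS were given, against Intact. By the study's methods the operation also included a laminectomy and penicillin, and whether Intact rats had these was not stated. Their part cannot be told apart from that of the injury. In sub-SCI against Intact, 20 of the 43 genes were DEGs higher and 7 were DEGs lower, beside 16.6% and 17.5% of all genes tested. The median log2 fold change of the family was 1.25, against -0.02 over all genes tested, and single genes ran from -4.19 to 4.38. All sub-SCI libraries lay above all Intact libraries for 24 genes (32.9% of all genes) and below them for 8 (34%). By class, 7 of 11 fibril-forming genes rose and 2 fell, 2 of 6 basement membrane genes rose and 1 fell, 3 of 5 microfibril genes rose, 3 of 9 FACITs rose and 2 fell, and both multiplexins rose. The 7 genes that fell were Col2a1, Col11a2, Col4a3, Col10a1, Col9a1, Col19a1 and Col25a1. The count lower was 4 without Intact replicate 4, 3 without sub-SCI replicate 2 and 4 without sub-SCI replicate 3.

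**Figure D2:**
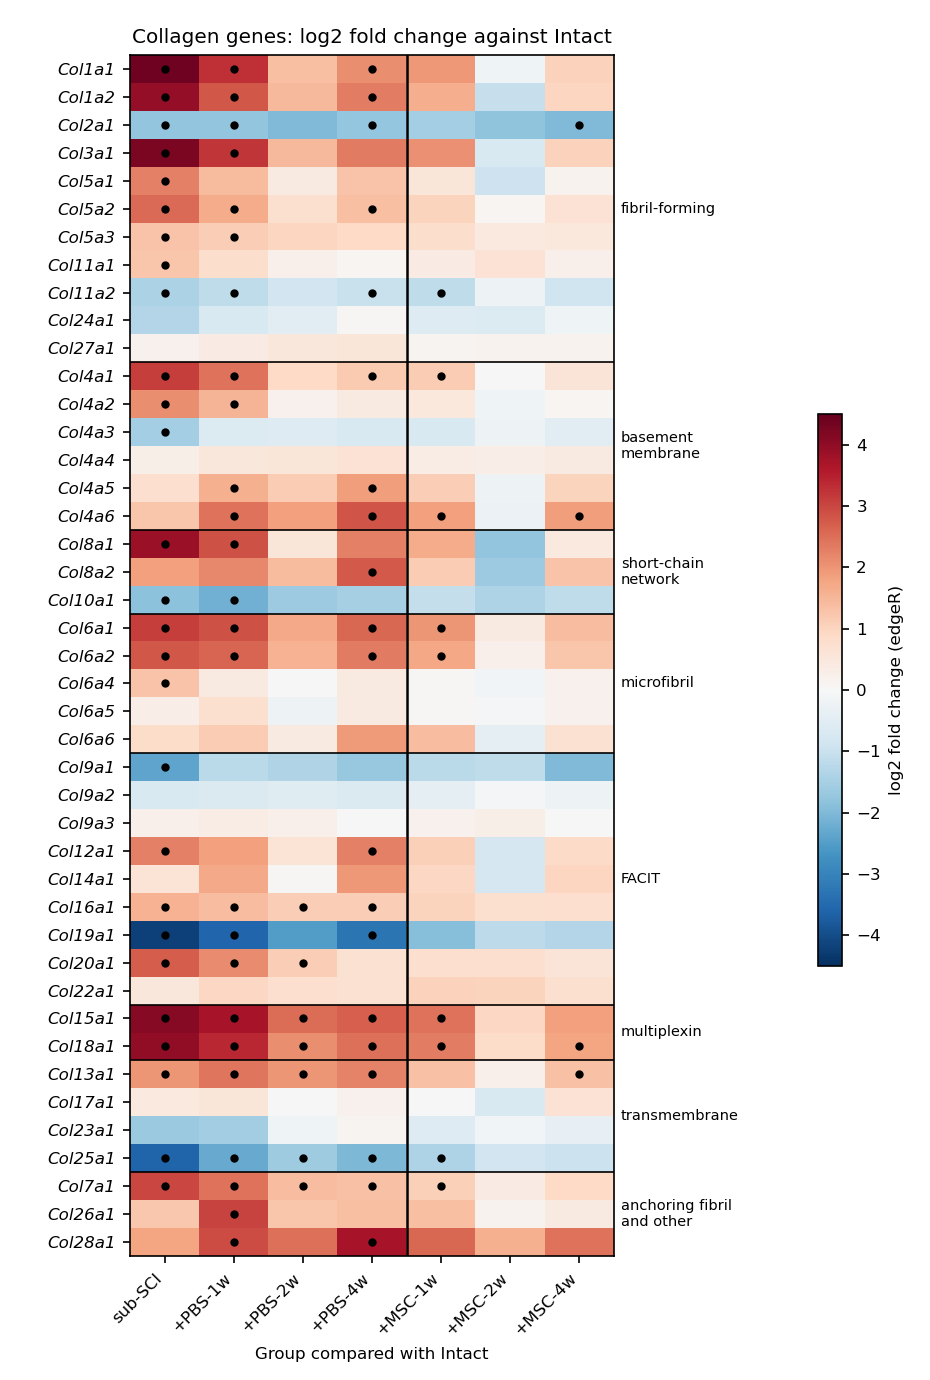
Rows are the 43 collagen genes ordered by structural class, columns are the other 7 groups, and color gives the log2 fold change against Intact, with dots for DEGs. DEGs higher and lower numbered 20 and 7 in sub-SCI, 20 and 5 in +PBS-1w, 6 and 1 in +PBS-2w, 16 and 4 in +PBS-4w, 7 and 2 in +MSC-1w, 0 and 0 in +MSC-2w and 3 and 1 in +MSC-4w.

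Col1a1, which encodes the main chain of type I collagen, was at 16.2, 140, 209 and 418 CPM in the Intact libraries and at 3020, 3210 and 6000 CPM in sub-SCI. It stood at 1550, 1280 and 2900 CPM in +PBS-1w, at 626 and 384 CPM in +PBS-2w and at 298, 1100, 831 and 1130 CPM in +PBS-4w. All sub-SCI and +PBS-1w libraries lay above all Intact libraries, whereas +PBS-2w and +PBS-4w overlapped Intact. Col1a1 rose by 4.38 ± 0.709 on the log2 scale (SE, adjusted p = 1.64e-05) in sub-SCI, by 3.29 ± 0.679 (adjusted p = 0.000352) in +PBS-1w and by 2.1 ± 0.627 (adjusted p = 0.00778) in +PBS-4w, and at 2 wpt its log2 fold change was 1.37 ± 0.712 (adjusted p = 0.139). At 4 wpt it was no DEG without Intact replicate 2 (adjusted p = 0.0233), Intact replicate 3 (0.0185) or +PBS-4w replicate 2, 3 or 4 (0.0203, 0.0136 and 0.021).

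Col3a1, the chain of type III collagen, which lies in the same fibrils as type I, had a like course. Its levels were 9.33, 132, 458 and 230 CPM in Intact, 2750, 3070 and 5770 CPM in sub-SCI and 339, 1230, 1020 and 1610 CPM in +PBS-4w. Every sub-SCI library lay above Intact, and +PBS-4w overlapped Intact through its replicate 1. Col3a1 rose by 4.22 ± 0.817 (adjusted p = 0.00013) in sub-SCI. In +PBS-4w its log2 fold change was 2.34 ± 0.734 (adjusted p = 0.0107), and without +PBS-4w replicate 1 it was 2.69 (adjusted p = 0.00433). The ratio of Col3a1 to Col1a1 per kb was 1.3 ± 0.947 in Intact, 1.15 ± 0.0335 in sub-SCI and 1.5 ± 0.173 in +PBS-4w.

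Col1a2 encodes the partner chain in the type I trimer. Its level was 0.437, 3.3, 6.2 and 10.1 CPM in Intact and 30.4, 42.3 and 165 CPM in sub-SCI, without overlap, and it rose by 3.96 ± 0.76 on the log2 scale (adjusted p = 0.000119). Per kb Col1a1 stood 29.6 ± 3.06 times above Col1a2 in Intact and 54.2 ± 24.5 times above it in sub-SCI, and the group means ran from 27.2 to 54.2 times. The reason for so wide a gap between the 2 chains was not tested, and the changes of Col1a2 are given relative to itself.

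Type V collagen takes part in starting type I fibrils. Col5a1 was at 30.6, 72.5, 100 and 66 CPM in Intact and 214, 254 and 514 CPM in sub-SCI. Col5a2 was at 48.5, 68.2, 104 and 91.2 CPM and 273, 333 and 760 CPM. Both rose without overlap, by 2.28 ± 0.48 (adjusted p = 0.000307) and 2.54 ± 0.407 (adjusted p = 1.43e-05) on the log2 scale. The per kb ratio of Col5a1 to Col5a2 was 0.582 ± 0.139 in Intact, 0.511 ± 0.0396 in sub-SCI and, at its lowest, 0.291 ± 0.0377 in +MSC-2w.

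Col6a1, Col6a2 and Col12a1 were DEGs higher in sub-SCI and again at 4 wpt. Col6a1, a chain of the microfibrils around cells, was at 18.6, 55.1, 85.1 and 74.5 CPM in Intact, 370, 368 and 761 CPM in sub-SCI and 109, 445, 442 and 385 CPM in +PBS-4w. Col6a2, its partner, was at 28, 81.1, 116 and 91.8 CPM, 439, 393 and 839 CPM and 176, 512, 441 and 474 CPM. No sub-SCI or +PBS-4w library of either gene reached down to Intact. Col6a1 rose by 3.1 ± 0.488 (adjusted p = 1.2e-05) in sub-SCI and by 2.57 ± 0.462 (adjusted p = 9.46e-05) in +PBS-4w, and Col6a2 by 2.81 ± 0.438 (adjusted p = 1.04e-05) and 2.34 ± 0.415 (adjusted p = 7.98e-05). Their per kb ratio had group means between 0.866 and 1.07.

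Col12a1, a FACIT of dense connective tissue, was at 16.8, 48.4, 85.1 and 63.1 CPM in Intact, 159, 161 and 454 CPM in sub-SCI and 51.1, 497, 192 and 291 CPM in +PBS-4w. Sub-SCI lay above Intact, and +PBS-4w overlapped it through replicate 1. Its log2 fold changes were 2.27 ± 0.611 (adjusted p = 0.00283) and 2.27 ± 0.586 (adjusted p = 0.00264). Each rested on 1 library: without sub-SCI replicate 3 the first was 1.58 (adjusted p = 0.0398), and without +PBS-4w replicate 2 the second was 1.74 (adjusted p = 0.0166).

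The genes that were DEGs higher than Intact in sub-SCI and in all 3 +PBS groups were Col7a1, Col13a1, Col15a1, Col16a1 and Col18a1. Without +PBS-2w replicate 1, which leaves 1 library in its group, the calls of Col13a1, Col15a1 and Col18a1 at 2 wpt were lost. Col18a1, a multiplexin whose C-terminal fragment is endostatin, was at 14.7, 38.1, 34.6 and 23.9 CPM in Intact, 358, 421 and 558 CPM in sub-SCI, 153, 186 and 544 CPM in +PBS-1w, 145 and 91.5 CPM in +PBS-2w and 81.6, 178, 211 and 157 CPM in +PBS-4w. None of these injured libraries overlapped Intact. Its log2 fold change was 4 ± 0.46 (adjusted p = 1.92e-07) in sub-SCI and 2.49 ± 0.42 (adjusted p = 4.58e-05) in +PBS-4w. Col13a1, a transmembrane collagen of cell contacts, was at 0.982, 5.27, 5.41 and 5.4 CPM in Intact and 15.9, 15 and 19.7 CPM in sub-SCI (log2 fold change 1.97 ± 0.384, adjusted p = 0.000136). Col7a1, the collagen of anchoring fibrils, had the smallest adjusted p of the family in sub-SCI, at 9.82, 14.7, 12.1 and 11.9 CPM in Intact and 89.5, 98.4 and 107 CPM in sub-SCI (log2 fold change 3.02 ± 0.207, adjusted p = 1.58e-10).

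**Figure D3:**
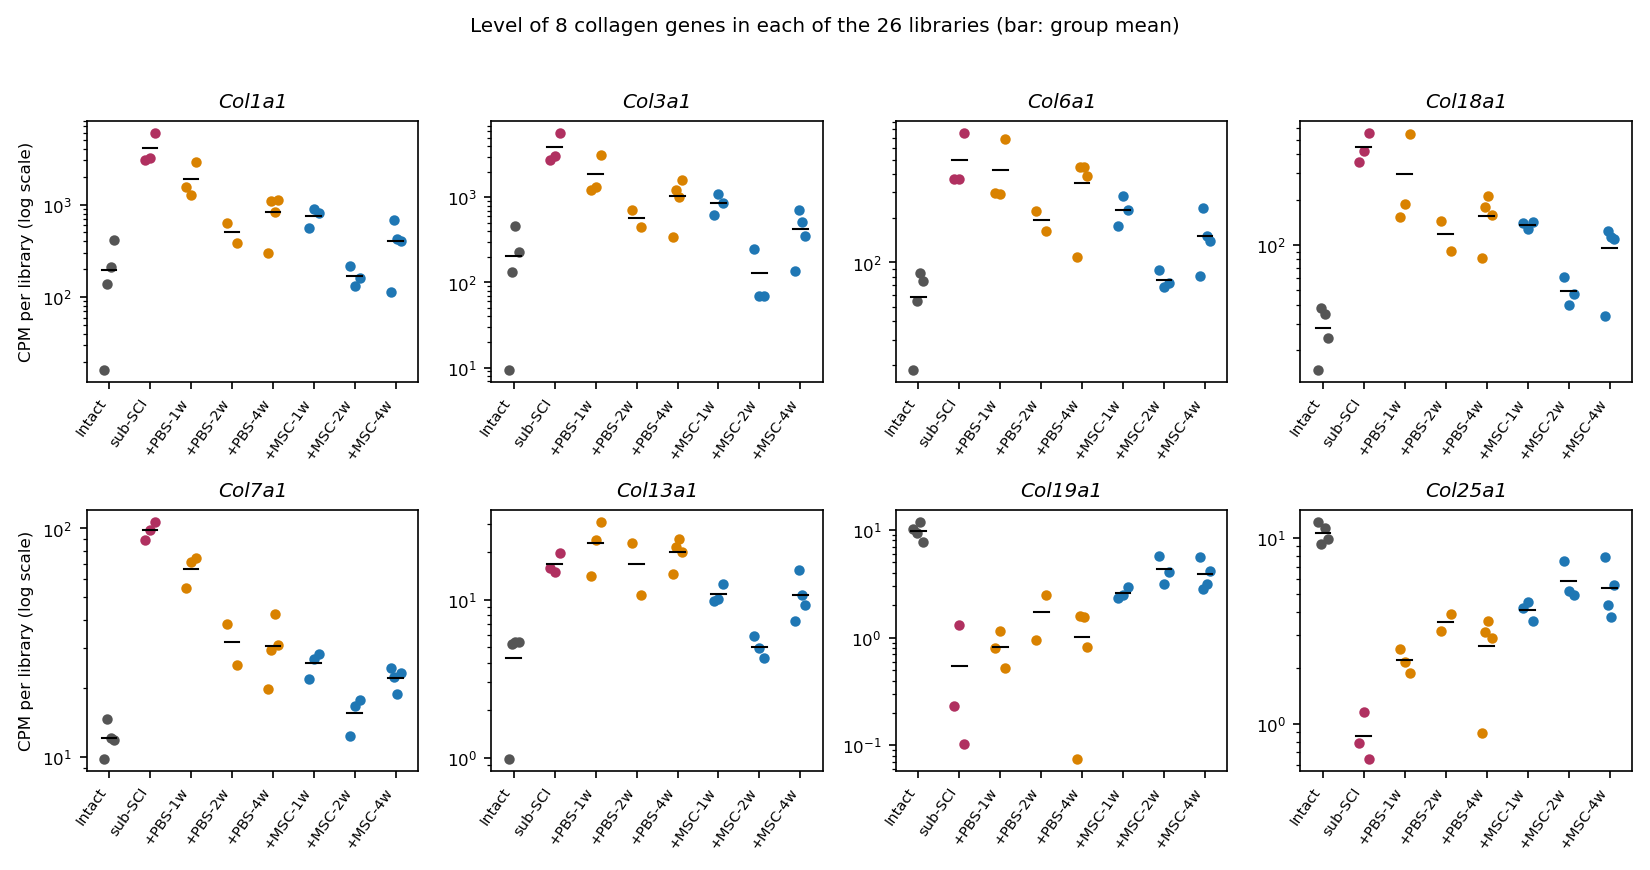
Each point is 1 library and each bar a group mean of CPM (y axis, log scale) for 8 collagen genes in the 8 groups (x axis). Within Intact alone Col1a1 spread over 16.2 to 418 CPM and Col3a1 over 9.33 to 458 CPM, whereas Col19a1 and Col25a1 were at 7.75 to 11.9 and 9.3 to 12.2 CPM there and below that range in all injured libraries.

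The 6 type IV genes lie as 3 neighboring pairs on chromosomes 16, 9 and X, the genes of a pair being read in opposite directions. In the RefSeq annotation of build GRCr8 the starts of Col4a1 and Col4a2 are 77 bases apart, so that their windows of 250 bases before to 50 bases after the start share 176 bases. The starts of Col4a3 and Col4a4 are 413 bases apart, with 88 bases shared, and those of Col4a5 and Col4a6 are 1415 bases apart, with 0 shared. The windows of the first and last pair are shown because the first pair had its highest mean in sub-SCI and the last in +PBS-4w. Each reads 5′ to 3′ on the strand of its gene, and capitals mark CCAAT (reverse complement ATTGG) and GGGCGG (reverse complement CCGCCC). Col4a1 is on the plus strand at chr16:84885347-84885646, Col4a2 on the minus strand at chr16:84885471-84885770, Col4a5 on the plus strand at chrX:109907109-109907408 and Col4a6 on the minus strand at chrX:109905895-109906194.
Col4a1: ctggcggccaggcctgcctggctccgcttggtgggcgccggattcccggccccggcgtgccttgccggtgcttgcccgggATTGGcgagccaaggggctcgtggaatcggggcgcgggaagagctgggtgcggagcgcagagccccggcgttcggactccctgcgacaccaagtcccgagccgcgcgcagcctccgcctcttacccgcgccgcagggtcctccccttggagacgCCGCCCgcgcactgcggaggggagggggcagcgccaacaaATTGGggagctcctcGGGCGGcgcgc
Col4a2: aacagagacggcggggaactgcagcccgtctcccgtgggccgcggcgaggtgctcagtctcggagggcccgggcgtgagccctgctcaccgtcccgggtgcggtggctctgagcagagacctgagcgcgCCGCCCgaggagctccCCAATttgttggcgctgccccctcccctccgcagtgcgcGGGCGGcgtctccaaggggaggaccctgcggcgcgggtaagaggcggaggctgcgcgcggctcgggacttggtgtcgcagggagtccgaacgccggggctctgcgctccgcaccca
Col4a5: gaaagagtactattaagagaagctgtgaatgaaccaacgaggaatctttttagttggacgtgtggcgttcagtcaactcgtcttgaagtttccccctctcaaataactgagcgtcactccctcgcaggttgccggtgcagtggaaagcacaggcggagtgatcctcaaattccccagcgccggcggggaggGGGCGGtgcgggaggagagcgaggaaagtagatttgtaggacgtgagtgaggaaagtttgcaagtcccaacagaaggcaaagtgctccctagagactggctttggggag
Col4a6: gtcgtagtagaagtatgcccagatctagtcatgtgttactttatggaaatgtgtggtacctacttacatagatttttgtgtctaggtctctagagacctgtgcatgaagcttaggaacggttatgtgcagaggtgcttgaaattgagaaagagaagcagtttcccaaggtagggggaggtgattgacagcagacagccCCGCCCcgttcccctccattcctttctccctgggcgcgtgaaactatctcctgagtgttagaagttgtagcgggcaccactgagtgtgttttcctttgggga

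Over both strands the Col4a1 window held 2 matches to CCAAT and 2 to GGGCGG, and the Col4a2 window 1 and 2, some of them the same bases read from either gene. The Col4a5 and Col4a6 windows held 1 match to GGGCGG each and 0 to CCAAT, and TATAAA was in none of the 4. Windows were found for 34 of the 43 members, of which 32.4% held CCAAT, 55.9% GGGCGG and 11.8% TATAAA, against 37.5%, 33.1% and 14.2% of 33469 windows. A match describes letters and is not a binding site.

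Col4a1 and Col4a2 encode the chains of the common basement membrane network, found around vessels. Col4a1 was at 63.7, 101, 86.4 and 81.5 CPM in Intact, 616, 672 and 864 CPM in sub-SCI, 355, 394 and 621 CPM in +PBS-1w, 185 and 125 CPM in +PBS-2w and 101, 232, 221 and 196 CPM in +PBS-4w. Col4a2 was at 81.4, 89.9, 93.9 and 92.5 CPM, 331, 344 and 457 CPM, 217, 209 and 357 CPM, 114 and 91.4 CPM and 47.8, 149, 145 and 135 CPM. For both genes sub-SCI lay above all Intact and all +PBS-4w libraries. Col4a1 rose by 3.11 ± 0.265 in sub-SCI (adjusted p = 3.08e-09) and Col4a2 by 2.08 ± 0.262 (adjusted p = 6.77e-07), and from sub-SCI to +PBS-4w they fell by 1.94 ± 0.256 (adjusted p = 2.07e-05) and 1.66 ± 0.259 (adjusted p = 0.000105) on the log2 scale. The per kb ratio of Col4a1 to Col4a2 was 0.695 ± 0.107 in Intact and 1.43 ± 0.0364 in sub-SCI, with no overlap between 0.587 to 0.842 and 1.39 to 1.47.

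Col4a5 and Col4a6, whose chains are known from kidney and smooth muscle basement membranes, were highest later. Col4a5 was at 19.6, 37.2, 41.9 and 35.2 CPM in Intact, 57.6, 44.8 and 66.8 CPM in sub-SCI and 43.8, 183, 141 and 126 CPM in +PBS-4w. Col4a6 was at 1.75, 2.7, 3.79 and 3.12 CPM, 8.28, 5.36 and 6.61 CPM and 3.61, 34.4, 23.5 and 19.3 CPM. Sub-SCI lay above Intact for both, and +PBS-4w did so for Col4a5 but overlapped Intact for Col4a6 through replicate 1. Neither was a DEG in sub-SCI (adjusted p = 0.125 and 0.041), and both were in +PBS-1w (neither without +PBS-1w replicate 3, adjusted p = 0.0992 and 0.0107) and in +PBS-4w, where they rose by 1.88 ± 0.402 (adjusted p = 0.00052) and 2.82 ± 0.502 (adjusted p = 8.26e-05). From sub-SCI to +PBS-4w the log2 fold changes were 1.13 ± 0.431 and 1.58 ± 0.521, with adjusted p = 0.0592 and 0.0304, which do not pass. The 4 highest +PBS libraries for Col4a6 were at 34.4, 28.5, 23.5 and 19.3 CPM. They were also highest in the sum over meningeal markers (1030, 780, 714 and 609 CPM). The same held for fibroblast markers other than Thy1 (3680, 4490, 3010 and 2920 CPM) and for bone markers (92.2, 92.8, 53.5 and 50.5 CPM). The bone sum was mostly Alpl, with a mean of 27.5 CPM over all libraries, against at most 3.68 CPM for any other bone marker. Against Intact, whose replicate 4 was high in bone markers, 5 of the 7 were below 0 in +PBS-4w and 2 above. The part of any of these tissues was not tested.

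The remaining type IV pair was split. Col4a3 was at 8.35, 13.5, 13.4 and 11 CPM in Intact and 3.46, 3.7 and 4.98 CPM in sub-SCI, without overlap, and fell by 1.52 ± 0.392 on the log2 scale (adjusted p = 0.00209). It was no DEG without sub-SCI replicate 1 (adjusted p = 0.0128) or 2 (0.0111). Its neighbor Col4a4 was at 25.9 to 31.8 CPM and 32.5 to 43.5 CPM (log2 fold change 0.28 ± 0.236, adjusted p = 0.312). The per kb ratio of Col4a4 to Col4a3 ran over 1.41 to 1.89 in Intact and 5.33 to 5.73 in sub-SCI.

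**Figure D4:**
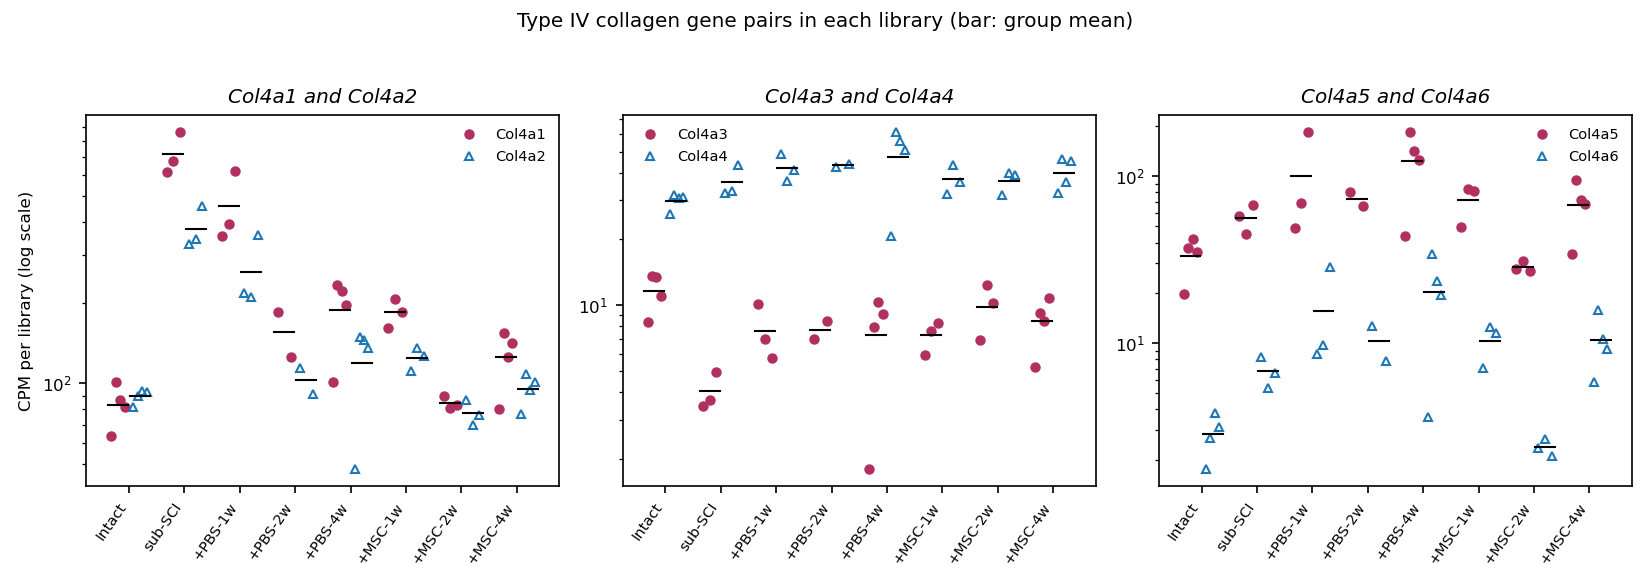
Panels show the 3 neighboring pairs of type IV genes, with 1 point per library, bars for group means, CPM on a log scale (y axis) and the 8 groups (x axis). Col4a1 and Col4a2 have their highest means in sub-SCI, at 717 and 377 CPM, and Col4a5 and Col4a6 in +PBS-4w, at 123 and 20.2 CPM.

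The injured groups without transplanted cells trace the family over time. The highest of these 4 group means was in sub-SCI for 19 genes, in +PBS-1w for 7, in +PBS-2w for 5 and in +PBS-4w for 12, against 34.6%, 12.9%, 25.5% and 27.1% of all genes. Against Intact there were 20 DEGs higher and 5 lower in +PBS-1w (13.5% and 12.5% of all genes), 6 and 1 in +PBS-2w (8.84% and 5.66%) and 16 and 4 in +PBS-4w (13.3% and 10.7%). These comparisons share the Intact libraries. Without +PBS-1w replicate 3 the first count was 12, and without +PBS-2w replicate 1 the count higher at 2 wpt was 2, whereas it was 13 with a term for replicate 1. The count lower in +PBS-1w was 2 without its replicate 1 and 3 without its replicate 2 or 3 or Intact replicate 4. In +PBS-2w it was 0 without either of its libraries and 2 without Intact replicate 1 or 3, and in +PBS-4w 2 without Intact replicate 4. The family's median log2 fold change was 1.44, 0.53 and 1.09 at 1, 2 and 4 wpt, against -0.01, 0 and 0.05 over all genes, and at 1 wpt it was 0.9 without +PBS-1w replicate 3.

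Directly between +PBS-4w and sub-SCI, Col4a1, Col4a2, Col7a1, Col11a1 and Col20a1 were DEGs lower and Col25a1 was higher, 5 genes and 1 beside 3.09% and 4.28% of all genes. Col20a1, a FACIT, was at 104, 85.1 and 50.3 CPM in sub-SCI and 13.6, 17, 26.2 and 20.7 CPM in +PBS-4w, and fell by 2.05 ± 0.263 on the log2 scale (adjusted p = 1.56e-05). The groups did not overlap, and the Intact level of Col20a1 was 10.1 to 15.3 CPM. Col1a1 and Col3a1 had log2 fold changes of -2.28 ± 0.658 and -1.88 ± 0.757 (adjusted p = 0.0144 and 0.0732) and did not pass. The count higher was 5 without +PBS-4w replicate 1 and 0 without sub-SCI replicate 1 or 3.

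The short-chain pair of type VIII, which makes lattices in vessel walls and the eye, had 1 gene called against Intact in sub-SCI and the other in +PBS-4w. Col8a1 was at 1.31, 13, 33.8 and 23.2 CPM in Intact, 85.2, 164 and 550 CPM in sub-SCI and 11, 135, 91.9 and 102 CPM in +PBS-4w. Col8a2 was at 2.07, 33.5, 43.4 and 33 CPM, 58.9, 58.1 and 186 CPM and 48.3, 320, 218 and 176 CPM. Sub-SCI lay above Intact for both genes, and +PBS-4w only for Col8a2. Col8a1 was a DEG in sub-SCI (3.9 ± 0.891, adjusted p = 0.000686) and not in +PBS-4w (2.25 ± 0.812, adjusted p = 0.0243), and Col8a2 in +PBS-4w (2.76 ± 0.738, adjusted p = 0.00351) and not in sub-SCI (1.85 ± 0.75, adjusted p = 0.0377). Col8a1 was no DEG without sub-SCI replicate 3 (adjusted p = 0.0102), nor Col8a2 without +PBS-4w replicate 2 (0.013). Directly between +PBS-4w and sub-SCI neither passed, at -1.65 ± 0.828 (adjusted p = 0.154) and 0.91 ± 0.76 (0.405). The per kb ratio of Col8a1 to Col8a2 was 0.605 ± 0.164 in Intact, 2.33 ± 0.812 in sub-SCI and 0.401 ± 0.14 in +PBS-4w.

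Col28a1, known from the sheaths of peripheral nerve, had the largest fold of the family at 4 wpt. It was at 0.273, 1.56, 0.833 and 0.988 CPM in Intact and 3.06, 21.2, 13.1 and 11.1 CPM in +PBS-4w, without overlap, and rose by 3.71 ± 0.852 on the log2 scale (adjusted p = 0.00101).

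Col19a1 and Col25a1, a FACIT and a transmembrane collagen that neurons are known to make, had the largest falls. Col19a1 was at 10.2, 9.44, 11.9 and 7.75 CPM in Intact, 0.233, 1.3 and 0.102 CPM in sub-SCI and 0.0745, 1.59, 1.57 and 0.826 CPM in +PBS-4w. Col25a1 was at 12.2, 9.3, 11.3 and 9.81 CPM, 0.785, 1.16 and 0.644 CPM and 0.894, 3.1, 3.58 and 2.89 CPM. No injured library of these groups reached up to Intact. In sub-SCI Col19a1 fell by 4.19 ± 0.71 (adjusted p = 2.87e-05) and Col25a1 by 3.62 ± 0.375 (adjusted p = 4.51e-08) on the log2 scale, and in +PBS-4w by 3.27 ± 0.597 (adjusted p = 0.000108) and 2.02 ± 0.307 (adjusted p = 1.35e-05). Of 10 neuron markers 8 were DEGs lower in sub-SCI and 7 in +PBS-4w, beside 17.5% and 10.7% of all genes. The part of neurons in the result was not tested.

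Col2a1, Col9a1, Col10a1 and Col11a2, best known from cartilage, were also DEGs lower in sub-SCI. Col11a2 was at 202, 252, 201 and 255 CPM in Intact and 121, 93 and 43.1 CPM in sub-SCI, without overlap (log2 fold change -1.41 ± 0.307, adjusted p = 0.00044). Col2a1 was at 8.68, 13.3, 8.97 and 61.6 CPM in Intact and 10.4, 6.38 and 3.73 CPM in sub-SCI (-1.76 ± 0.517, adjusted p = 0.00549). The groups overlapped for Col2a1, and Intact replicate 4 was far above the rest. The call in sub-SCI was lost without sub-SCI replicate 2 (-1.71, adjusted p = 0.0223) or 3 (-1.47, 0.0378), with the replicate block (-1.12, 0.0461) and in DESeq2 on the groups compared (0.0731), and that in +PBS-4w without its replicate 1 (0.012) and with the block (0.0122). Without Intact replicate 4 the log2 fold change of Col2a1 was -0.6 (adjusted p = 0.102) in sub-SCI and -0.58 (0.0976) in +PBS-4w.

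Col9a1 and Col10a1 were at low levels and their calls depended on several libraries. Col9a1 was at 1.2, 0.916, 1.34 and 2.93 CPM in Intact and 0.639, 0.217 and 0.0339 CPM in sub-SCI (-2.38 ± 0.629, adjusted p = 0.00243). Col10a1 was at 0.164, 0.596, 0.601 and 1.79 CPM and 0.203, 0.29 and 0.17 CPM (-1.84 ± 0.579, adjusted p = 0.00877). Col9a1 did not overlap between the groups and Col10a1 did. Without Intact replicate 4 the values were -1.91 (adjusted p = 0.013) and -1.05 (0.0929). The call of Col9a1 was also lost without sub-SCI replicate 2 (adjusted p = 0.0146) or 3 (0.0142). That of Col10a1 was lost without Intact replicate 2 (adjusted p = 0.0118) or sub-SCI replicate 1, 2 or 3 (0.0322, 0.0151 and 0.04), with the replicate block (0.037) and without the filter (0.0165). In Intact replicate 4 the sum over the cartilage markers, 107 CPM, lay within the 104 to 110 CPM of the other Intact libraries. That sum was mostly Acan, Hapln1 and Sox9 (31.2, 27.8 and 26.7 CPM), which cord cells also make. Comp, Matn3 and Chad were highest in this library (9.69, 1.25 and 6.99 CPM, against at most 7.51, 0.694 and 6.05 CPM), and Cnmd, Matn1 and Epyc were not. The sum over 7 bone markers, 67.4 CPM, lay above the 20.8 to 36.8 CPM of the other Intact libraries. The part of cartilage or bone was not tested.

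The other members that passed a test were Col15a1, Col16a1, Col5a3, Col11a1, Col6a4 and Col26a1. Col15a1, the second multiplexin, was at 0.327, 2.7, 1.99 and 1.52 CPM in Intact, 23.9, 26 and 35 CPM in sub-SCI and 2.76, 8.29, 18.9 and 12.5 CPM in +PBS-4w. It rose by 4.1 ± 0.596 on the log2 scale (adjusted p = 4.44e-06) in sub-SCI and by 2.68 ± 0.557 (adjusted p = 0.000405) in +PBS-4w. Neither group overlapped Intact, although in +PBS-4w the margin was narrow (2.76 against 2.7 CPM). Col16a1, a FACIT, was at 110, 135, 117 and 140 CPM in Intact and 424, 327 and 348 CPM in sub-SCI (1.55 ± 0.156, adjusted p = 3.05e-08). The fibril-forming Col5a3 (1.29 ± 0.251, adjusted p = 0.000136) and Col11a1 (1.25 ± 0.258, 0.000246) and the type VI chain Col6a4 (1.28 ± 0.403, 0.00888) rose in sub-SCI. Col6a4 was no DEG without Intact replicate 2, 3 or 4 (adjusted p = 0.0184, 0.0297 and 0.0113) or sub-SCI replicate 2 or 3 (0.027 and 0.0648). Col26a1 was at 0.6, 0.321, 0.601 and 0.798 CPM in Intact and 0.446, 0.522 and 13.5 CPM in +PBS-1w. Its log2 fold change there was 3.03 ± 0.875 (adjusted p = 0.006), which 1 library carried: without +PBS-1w replicate 3 it was -0.27 (adjusted p = 0.78). The call was also lost without Intact replicate 1, 2, 3 or 4 (adjusted p = 0.0134, 0.0178, 0.0155 and 0.0114) and with the replicate block (0.035).

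A further 10 members, Col24a1, Col27a1, Col6a5, Col6a6, Col9a2, Col9a3, Col14a1, Col22a1, Col17a1 and Col23a1, were DEGs in none of the comparisons made here, as was Col4a4. Their Intact means ran from 0.78 to 74.9 CPM. The widest log2 fold changes among them against Intact in sub-SCI and +PBS-4w were those of Col14a1, a FACIT (1.94 ± 0.657 in +PBS-4w, adjusted p = 0.0169), Col6a6, a type VI chain (1.9 ± 0.643, 0.017), and the transmembrane Col23a1 (-1.66 ± 0.562 in sub-SCI, 0.0144). Col9a3 and Col27a1 were among the closest to Intact in sub-SCI, at 0.24 ± 0.222 (adjusted p = 0.366) and 0.19 ± 0.275 (0.566).

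The second question is what the transplanted cells changed, at each week and over the 3 weeks together. At no single week was a collagen gene a DEG between +MSC and +PBS in the edgeR test. Among all genes, DEGs made up 0% (higher) and 0.0111% (lower) for +MSC-1w, 0% and 0% for +MSC-2w, and 0.495% and 0% for +MSC-4w. Collagen genes with an unadjusted p under 0.05 numbered 2 higher and 8 lower in +MSC-1w (10.6% and 7.34% of all genes). In +MSC-2w they numbered 0 and 14 (5.49% and 6.84%), and in +MSC-4w 2 and 11 (11.2% and 11.3%). With all libraries in DESeq2, 3 collagen genes were lower in +MSC-1w, 0 in +MSC-2w and 0 in +MSC-4w, and 0, 0 and 0 were higher. With only the groups compared in DESeq2, 7, 11 and 0 were lower and 1, 0 and 0 higher. The shares of all genes above are those of edgeR, so these DESeq2 counts do not show whether collagens stood out from other genes. Without +PBS-4w replicate 1, 1 gene was a DEG lower in +MSC-4w in edgeR.

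Most collagens were nevertheless on the lower side with hUC-MSCs. The median log2 fold change of the family was -0.53, -0.63 and -0.45 at 1, 2 and 4 wpt, against 0, 0 and -0.04 over all genes tested. At 1 wpt it was -0.26 without +PBS-1w replicate 3 and -0.82 without +PBS-1w replicate 1, and at 2 wpt -0.41 without +PBS-2w replicate 1. The estimate was below 0 at all 3 weeks for 27 of the 43 genes (62.8%) and above 0 for 5 (11.6%), against 30.5% and 27.7% of all genes tested. At 2 wpt every +MSC library lay below both +PBS libraries for 23 genes (18.4% of all genes) and above both for 4 (18.6%). At 1 wpt the same held for 12 genes lower (11.6%) and 3 higher (15.3%), and at 4 wpt for 0 (4.47%) and 2 (6.08%).

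Over the mean of the 3 weeks, 7 genes were DEGs lower with hUC-MSCs (Col13a1, Col6a2, Col8a2, Col6a1, Col4a6, Col18a1 and Col5a1) and 1, Col19a1, was higher, beside 0.956% and 1.61% of all genes. The median log2 fold change of the family was -0.6, against -0.02 over all genes, and -0.36 without +PBS-1w replicate 3. Without the fold requirement 11 genes were lower (3.92% of all genes) and 2 higher (5.77%), a count chosen after the values were seen, which adds Col7a1, Col4a1, Col16a1 and Col20a1 to the lower genes and Col25a1 to the higher. Col7a1 (-0.95 ± 0.123, adjusted p = 0.000155) and Col4a1 (-0.92 ± 0.157, adjusted p = 0.000747) had the smallest adjusted p of the family. Means of Col7a1 in +MSC and +PBS were 25.7 and 66.8 CPM at 1 wpt, 15.7 and 31.8 CPM at 2 wpt and 22.3 and 30.6 CPM at 4 wpt. Those of Col20a1 were 20.1 and 53.4 CPM, 20.3 and 25.8 CPM and 17.9 and 19.4 CPM, widest apart at 1 wpt.

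**Figure D5:**
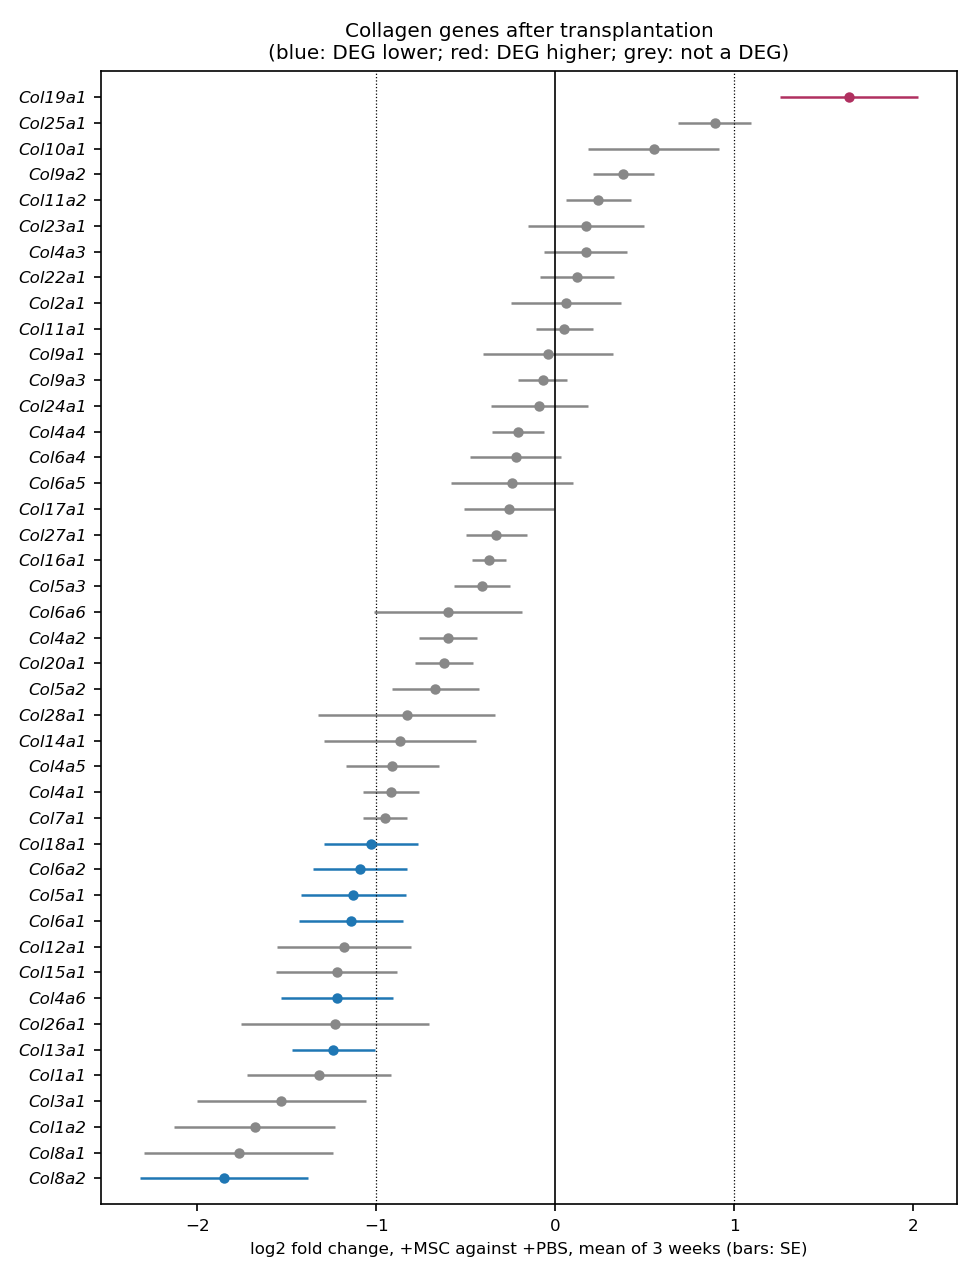
Points give the log2 fold change of +MSC against +PBS over the mean of the 3 weeks (x axis), with SE bars, for the 43 collagen genes (y axis), with DEGs in color. Estimates run from -1.85 for Col8a2 to 1.64 for Col19a1, with a median of -0.6.

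Col13a1 was at 9.83, 10.1 and 12.6 CPM in +MSC-1w against 14.1, 23.8 and 31.1 CPM in +PBS-1w. At 2 wpt it was at 5.89, 4.97 and 4.26 CPM against 23 and 10.7 CPM, and at 4 wpt at 7.36, 15.5, 10.7 and 9.2 CPM against 14.6, 21.6, 24.1 and 20.1 CPM. The groups were apart at 1 and 2 wpt, and at 4 wpt the highest +MSC library passed the lowest +PBS library. Over the 3 weeks its log2 fold change was -1.24 ± 0.233 (adjusted p = 0.00129), and it remained a DEG in 18 of the 19 fits that left out 1 of the +MSC or +PBS libraries.

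The type VI pair was lower as well. Col6a1 was at 176, 281 and 227 CPM against 295, 294 and 690 CPM at 1 wpt, 88.8, 68.5 and 72.2 CPM against 222 and 164 CPM at 2 wpt and 81.2, 234, 152 and 141 CPM against 109, 445, 442 and 385 CPM at 4 wpt. Col6a2 was at 221, 321 and 254 CPM against 338, 350 and 769 CPM, 114, 79.4 and 87.4 CPM against 278 and 192 CPM and 97.1, 278, 195 and 186 CPM against 176, 512, 441 and 474 CPM. Both were apart at 1 and 2 wpt and overlapped at 4 wpt, where +PBS-4w replicate 1 was low. The log2 fold changes were -1.14 ± 0.291 (adjusted p = 0.00848) and -1.09 ± 0.263 (adjusted p = 0.00618).

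Col18a1 and Col8a2 were lower too, and like the other genes called lower they had their lowest mean among the injured groups in +MSC-2w. Col18a1 was at 139, 128 and 143 CPM against 153, 186 and 544 CPM at 1 wpt, 61.4, 39.8 and 47.4 CPM against 145 and 91.5 CPM at 2 wpt and 33.8, 124, 113 and 110 CPM against 81.6, 178, 211 and 157 CPM at 4 wpt. Col8a2 was at 37.4, 85.7 and 65.4 CPM against 80.4, 53.1 and 243 CPM, 18.5, 4.97 and 3.85 CPM against 80.2 and 72.6 CPM and 31.3, 126, 55.6 and 57.2 CPM against 48.3, 320, 218 and 176 CPM. Col18a1 was apart at 1 and 2 wpt and Col8a2 at 2 wpt. Their log2 fold changes were -1.03 ± 0.264 (adjusted p = 0.00895) and -1.85 ± 0.47 (adjusted p = 0.00831).

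Col4a6 and Col5a1 complete the genes that were lower. Col4a6 was at 7.12, 12.4 and 11.5 CPM against 8.59, 9.7 and 28.5 CPM at 1 wpt, 2.34, 2.67 and 2.11 CPM against 12.7 and 7.75 CPM at 2 wpt and 5.81, 15.8, 10.6 and 9.25 CPM against 3.61, 34.4, 23.5 and 19.3 CPM at 4 wpt. Col5a1 was at 73.3, 131 and 91.1 CPM against 160, 116 and 273 CPM, 40, 29.4 and 35.8 CPM against 97.7 and 80.7 CPM and 50.8, 110, 71 and 69 CPM against 32.7, 222, 180 and 230 CPM. Both were apart only at 2 wpt. The log2 fold changes were -1.22 ± 0.312 (adjusted p = 0.00879) and -1.13 ± 0.293 (adjusted p = 0.00963).

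Apart from Col13a1 these calls often depended on single libraries. Of the 19 fits with 1 library left out, Col6a2 remained a DEG in 8, Col18a1, Col8a2 and Col4a6 in 5 each, Col6a1 in 4 and Col5a1 in 3. The log2 fold change stayed negative in every such fit, from -2.2 for Col8a2 to -0.76 for Col18a1. The number of genes lower was 16 without +PBS-4w replicate 1 and 0 without +PBS-2w replicate 1, which leaves 1 library in its group, assumed to vary like the other groups. It was 1 without +MSC-1w replicate 1, +MSC-1w replicate 3, +MSC-2w replicate 2, +MSC-2w replicate 3, +MSC-4w replicate 1, +MSC-4w replicate 4, +PBS-1w replicate 3, +PBS-4w replicate 2, +PBS-4w replicate 3 and +PBS-4w replicate 4, 2 without +MSC-1w replicate 2 and +MSC-4w replicate 3 and 3 without +MSC-2w replicate 1.

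The abundant fibril collagens Col1a1 and Col3a1 were no DEGs over the 3 weeks, although several other fits called them. Col1a1 was at 562, 895 and 818 CPM in +MSC-1w, 217, 133 and 159 CPM in +MSC-2w and 113, 680, 421 and 402 CPM in +MSC-4w. Col3a1 was at 628, 1100 and 863 CPM, 246, 69.9 and 69.1 CPM and 137, 705, 518 and 353 CPM. Both lay below all +PBS libraries of the week at 1 and 2 wpt and overlapped them at 4 wpt. Over the 3 weeks the log2 fold changes were -1.32 ± 0.403 (adjusted p = 0.0227) and -1.53 ± 0.47 (adjusted p = 0.0231), neither passing. DESeq2 on all libraries gave adjusted p = 0.00413 and 0.00198. In edgeR Col1a1 passed with the replicate block (-1.36, adjusted p = 0.00926), with a term for replicate 1 (0.00838) and without +PBS-4w replicate 1 (0.00807). Col3a1 passed without +PBS-4w replicate 1 (adjusted p = 0.00908) and without all replicate 1 libraries (0.0068).

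Further members were near the threshold. Col1a2 had a log2 fold change of -1.68 ± 0.45 (adjusted p = 0.0115), Col8a1 of -1.77 ± 0.528 (0.0202) and Col12a1 of -1.18 ± 0.374 (0.0274). All passed in DESeq2 on all libraries, at adjusted p = 0.003, 0.0065 and 0.00647, and in edgeR without +PBS-4w replicate 1, at 0.00303, 0.0049 and 0.00454. Col1a2 also passed with the replicate block (-1.75, adjusted p = 0.00163), with a term for replicate 1 (0.00166) and without +MSC-4w replicate 2 (0.00945) or +PBS-1w replicate 2 (0.0092). Col15a1 (-1.22 ± 0.338, adjusted p = 0.0133) passed in DESeq2 on all libraries (0.00236), with a term for replicate 1 (0.00801) and without +PBS-4w replicate 1 (0.00183) or +PBS-2w replicate 2 (0.00536). Col5a2 had a log2 fold change of -0.67 ± 0.245 (adjusted p = 0.0523) and Col4a2 of -0.6 ± 0.16 (0.0108).

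Col19a1 and Col25a1 were higher with hUC-MSCs. Col19a1 was at 2.34, 2.51 and 2.95 CPM against 0.803, 1.16 and 0.52 CPM at 1 wpt, 5.77, 3.12 and 4.06 CPM against 0.96 and 2.5 CPM at 2 wpt and 5.57, 2.82, 3.15 and 4.17 CPM against 0.0745, 1.59, 1.57 and 0.826 CPM at 4 wpt. Col25a1 was at 4.18, 4.52 and 3.58 CPM against 2.53, 2.16 and 1.88 CPM, 7.52, 5.17 and 4.93 CPM against 3.17 and 3.87 CPM and 7.84, 4.35, 3.76 and 5.59 CPM against 0.894, 3.1, 3.58 and 2.89 CPM. For these 2 genes every +MSC library lay above every +PBS library of its week, as for 2.68% of all genes, and 0 collagen genes lay below in that way, as did 0.834% of all genes. All +MSC libraries remained below the lowest Intact library. The log2 fold changes were 1.64 ± 0.387 (adjusted p = 0.00563) and 0.89 ± 0.202 (adjusted p = 0.00432), the latter under the fold threshold.

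Neuron markers were higher with hUC-MSCs too. Of 10 markers 3 were DEGs higher over the 3 weeks and 0 lower, beside 1.61% and 0.956% of all genes. At an unadjusted p under 0.05, 9 were higher, beside 18% of all genes. Their sum was 3960 to 8600, 6790 to 10300 and 6830 to 8720 CPM in the +MSC groups against 1330 to 3220, 3040 to 5820 and 1880 to 7360 CPM in the +PBS groups. Within +PBS-4w the order was the other way for replicate 1, which had the highest neuron sum (7360 CPM) and the lowest Col19a1 and Col25a1 (0.0745 and 0.894 CPM). The part of neurons in the result was not tested. Col19a1 was a DEG in 14 of the 19 fits with a library left out. It was none without +MSC-1w replicate 3, +MSC-2w replicate 1, +MSC-4w replicate 1, +PBS-1w replicate 3 or +PBS-2w replicate 1 (adjusted p = 0.0106, 0.0127, 0.0101, 0.0144 and 0.0476), nor without all replicate 1 libraries (1.18, adjusted p = 0.0547).

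Against Intact, the +MSC groups had 7 genes higher and 2 lower at 1 wpt (7.87% and 2.63% of all genes), 0 and 0 at 2 wpt (5.6% and 0.461%) and 3 and 1 at 4 wpt (7.25% and 1.53%), a comparison added after the data were seen and run in edgeR alone. At 2 wpt 4 genes were higher and 3 lower at an unadjusted p under 0.05 (18% and 14.5%), and missing the threshold does not show equal levels. Whether the difference between +MSC and +PBS varied with the week was tested in edgeR as an interaction. It passed at adjusted p under 0.05 for 0 of the 43 genes and 0 of the 17990, with 2 and 481 at an unadjusted p under 0.05. The 2 were Col20a1 (unadjusted p = 0.00653) and Col7a1 (0.0117).

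Most of the genes listed for modifying and folding collagen chains rose in sub-SCI. Of 18 such genes 12 were DEGs higher in sub-SCI, 11 in +PBS-1w, 4 in +PBS-2w and 7 in +PBS-4w, where 1, Colgalt2 (-1.21 ± 0.233, adjusted p = 0.000192), was lower. Among all genes DEGs higher made up 16.6%, 13.5%, 8.84% and 13.3% in these groups, and DEGs lower 10.7% in +PBS-4w. Their median log2 fold change in sub-SCI was 1.53. In sub-SCI the smallest p belonged to P4hb, the beta subunit of prolyl 4-hydroxylase (2.12 ± 0.128, adjusted p = 3.32e-11), the galactosyltransferase Colgalt1 (2.15 ± 0.142, 9.9e-11), the prolyl isomerases Ppib (1.61 ± 0.121, 5.7e-10) and Fkbp10 (2.75 ± 0.256, 1.03e-08), and the lysyl hydroxylases Plod1 (1.59 ± 0.139, 4.5e-09) and Plod3 (1.31 ± 0.145, 1.2e-07). The collagen chaperone Serpinh1, named after its values were seen, rose by 3.19 ± 0.43 (adjusted p = 1.66e-06). Over the 3 weeks 0 of these genes were DEGs between +MSC and +PBS in edgeR, with 13 lower and 0 higher at an unadjusted p under 0.05, beside 18.2% and 18% of all genes, at a median log2 fold change of -0.34.

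Of 12 genes for trimming and cross-linking 8 were DEGs higher in sub-SCI, at a median log2 fold change of 2.17. In the +PBS groups 8, 2 and 8 were DEGs higher and 1, 0 and 2 lower. Among all genes DEGs higher made up 16.6% in sub-SCI and 13.5%, 8.84% and 13.3% in the +PBS groups. There DEGs lower made up 12.5%, 5.66% and 10.7%. In sub-SCI Bmp1, which removes the C-propeptide of procollagen, rose by 2.05 ± 0.156 (adjusted p = 7.17e-10), its enhancer Pcolce by 3.94 ± 0.542 (2.16e-06), the cross-linking oxidases Loxl2 by 3.64 ± 0.419 (2e-07), Loxl3 by 2.28 ± 0.277 (4.05e-07) and Lox by 4.77 ± 0.751 (1.17e-05), and Adamts14, an N-propeptide proteinase, by 3.08 ± 0.502 (1.77e-05). With hUC-MSCs Loxl1 (-1.6 ± 0.393, adjusted p = 0.00683), Pcolce (-1.25 ± 0.314, 0.00782) and Adamts2, the N-propeptide proteinase (-1.18 ± 0.299, 0.00844), were lower over the 3 weeks, beside 0.956% of all genes. Of 9 receptor and uptake genes the integrin chains Itgb1 (1.6 ± 0.146, adjusted p = 7.79e-09) and Itga2 (3.17 ± 0.752, 0.000966) and the uptake receptor Mrc2 (1.39 ± 0.343, 0.0014) were 3 DEGs higher in sub-SCI. None, or 0, were lower, and the shares of all genes were 16.6% higher and 17.5% lower. Itga10, an integrin chain that binds collagen, was lower with hUC-MSCs (-1.78 ± 0.435, adjusted p = 0.00682).

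Markers of some cells that make collagen differed between the same groups. In sub-SCI 3 of 7 meningeal markers were DEGs higher and 1 lower, beside 16.6% and 17.5% of all genes. The counts were 3 and 0 of 8 endothelial markers, 3 and 0 of 10 markers of pericytes and smooth muscle and 1 and 1 of 8 Schwann cell markers. Of 12 fibroblast markers 9 were DEGs higher and 1 lower in sub-SCI, beside 16.6% and 17.5% of all genes. The lower one was Thy1, which neurons also express (-2.58 ± 0.434, adjusted p = 2.66e-05). Thy1 alone was at 945 to 1150 CPM in Intact and 100 to 231 CPM in sub-SCI, and the sum over the other fibroblast markers was 260 to 872 CPM in Intact and 2730 to 8320 CPM in sub-SCI. With hUC-MSCs this sum without Thy1 was 1150 to 2070, 531 to 635 and 1140 to 2040 CPM at 1, 2 and 4 wpt against 2030 to 4490, 1280 to 1510 and 932 to 3680 CPM in +PBS, overlapping at 1 and 4 wpt. Over the 3 weeks 11 of the 12 markers were lower at an unadjusted p under 0.05, beside 18.2% of all genes, at a median log2 fold change of -1.01. DEGs among them were Twist1, at -1.48 ± 0.357 (adjusted p = 0.00644), and Thy1, at 1.1 ± 0.251 (0.00446). Of 7 meningeal markers 3 were DEGs lower over the 3 weeks, beside 0.956% of all genes, at a median of -1.48. All 7 were lower at an unadjusted p under 0.05, beside 18.2% of all genes. At 2 wpt their sum was 55.9 to 156 CPM in +MSC and 346 CPM in both +PBS libraries. Of 8 endothelial markers 1 was a DEG lower and 3 were lower at an unadjusted p under 0.05, beside the same shares of all genes. Of 10 markers of pericytes and smooth muscle 0 were lower and 0 higher in edgeR, also with 0 and 0 at an unadjusted p under 0.05. Of 8 Schwann cell markers 0 were DEGs over the 3 weeks, with 1 lower and 0 higher at an unadjusted p under 0.05. DESeq2 was not counted over these lists. The part of these cells in the collagen values was not tested.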

How the data were processed

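RNA sequencing counts of 26 rat spinal cord libraries were analysed. Per the labels and the study's methods, the authors trimmed reads with Trim Galore (version 0.5.0), aligned them with HISAT2 (version 2.1.0), removed reads that mapped to the human genome GRCh38, kept properly paired reads on the rat genome Rnor6 with SAMtools (version 1.9) and counted them per gene with featureCounts (version 1.6.4). The deposited values are raw read counts per gene. The annotation release and strand setting were not given in the sources used here, so reads of overlapping genes on opposite strands may be mixed, and rat reads resembling the human genome may have been removed with the human ones, which could lower some genes. The 26 single-library tables hold the same counts as the joint table, and 0 pairs of libraries were identical.

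Groups were taken from the labels. Genes were kept by filterByExpr by group (17990 of 32883). All groups entered 1 edgeR quasi-likelihood model (version 4.0.16, R 4.3.3) with TMM scaling, and p-values were adjusted by Benjamini-Hochberg over all genes tested. CPM used TMM library sizes and no prior count, and CPM per kb used the gene lengths of the table. Alternatives were DESeq2 (version 1.42.0), other size factors, no filter, a replicate block, a term for replicate 1 and leaving out libraries. The scripts were tested on simulated data. Values by library, for several genes in only some of the groups, were given for Col1a1, Col1a2, Col3a1, Col4a1, Col4a2, Col5a1, Col5a2, Col6a1, Col6a2, Col8a1, Col12a1 and Col18a1. Such values were also given for members called between +MSC and +PBS and for members lower than Intact in sub-SCI or +PBS. The same holds for the 3 members with the largest and the 3 with the smallest change among DEGs of +PBS-4w. Other members were added after their values were seen. From the gene lists at most 6 DEGs a comparison were named, by smallest p. The members, gene lists and tests were chosen with earlier results of these data known. Promoter windows came from RefSeq on build GRCr8, and Rnor6 coordinates are not used here. Library totals set the precision, and levels below 1 CPM rest on few reads.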

Additional observations from a re-analysis of the deposited data

Results flagged for a closer look

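Of 69 sets of 4 libraries (23 named collagen genes in 3 groups of 4), 4 held a library whose distance from its nearest neighbor was large for the range of its group, and chance alone gives about 1 in 20. Col4a2 stood at 47.8 CPM in +PBS-4w replicate 1, below 135, 145 and 149 CPM in the others. Col18a1 stood at 33.8 CPM in +MSC-4w replicate 1, below 110, 113 and 124 CPM. Col13a1 stood at 0.982 CPM in Intact replicate 1, below 5.27, 5.4 and 5.41 CPM. Col2a1 stood at 61.6 CPM in Intact replicate 4, above 8.68, 8.97 and 13.3 CPM.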

How the results depend on the processing

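Counts of collagen genes called against Intact were 17 to 20 higher and 3 to 7 lower in sub-SCI when single libraries were left out, 12 to 22 and 2 to 5 in +PBS-1w, 2 to 6 and 0 to 2 in +PBS-2w and 11 to 22 and 2 to 5 in +PBS-4w. From sub-SCI to +PBS-4w they were 0 to 5 higher and 4 to 5 lower. Between +MSC and +PBS they were 0 in each fit at 1 and 2 wpt and 0 to 1 lower at 4 wpt, and 0 to 1 higher and 0 to 16 lower over the 3 weeks. Leaving out a +PBS-2w library leaves 1 in its group, which is assumed to vary like the other groups.

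With DESeq2 on all libraries the count lower was 3 in +PBS-2w against Intact, 3 at 1 wpt with hUC-MSCs and 13 over the 3 weeks, and the count higher from sub-SCI to +PBS-4w was 3. With DESeq2 on the groups compared, the count lower was 3 in +PBS-1w and 2 in +PBS-2w against Intact, 8 from sub-SCI to +PBS-4w, 7 at 1 wpt, 11 at 2 wpt and 13 over the 3 weeks with hUC-MSCs, and the count higher at 1 wpt was 1. Without the filter 1 gene was lower at 1 wpt. Shares of all genes are not given for these fits, so their counts do not show whether collagens stood out from other genes.

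Correlations of same-numbered deviations from the group means were low and uneven, from -0.16 to 0.25. For replicate 1 they were 0.22 in sub-SCI and 0.24, -0.06 and 0.25 in the +PBS groups, each against Intact. Between +MSC and +PBS those of replicate 1 were 0.13, -0.08 and 0.17 at 1, 2 and 4 wpt. With a replicate block the counts were 13 higher in +PBS-2w and 3 lower in +PBS-1w against Intact, and 1 lower at 1 wpt with hUC-MSCs. With a term for replicate 1 they were 13 higher in +PBS-2w, 8 lower from sub-SCI to +PBS-4w and 1 lower at 1 wpt. Without any replicate 1 library, a setting chosen after seeing the data, they were 3 lower in +PBS-1w, 2 higher in +PBS-2w, 5 higher and 9 lower from sub-SCI to +PBS-4w, 1 lower at 1 wpt and 0 higher over the 3 weeks. RLE size factors left all these counts within 1.5 times. The cause of these shifts was not tested.

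Over the 3 weeks the estimate of Col9a1 (-0.04) became 0.08 with the replicate block, 0.04 with the term for replicate 1, 0.2 without replicate 1 libraries and ran from -0.18 to 0.09 with single libraries left out, and that of Col2a1 (0.06) became -0.3 without replicate 1 libraries and ran from -0.07 to 0.2 with single libraries left out. Neither gene was called in any of these.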
